A study of Mus musculus with 8 samples.

Results

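Basement membranes are thin sheets of extracellular matrix that lie under endothelial and epithelial cells and around muscle cells. The members described here are 10 genes of the vascular basement membrane, namely Col4a1 and Col4a2 (collagen IV chains), Lama4, Lamb1 and Lamc1 (laminin chains), Nid1 and Nid2 (nidogens), Hspg2 (perlecan), and Col18a1 and Col15a1 (collagens XVIII and XV). They were chosen by name, with earlier results of these data known. The array held 17 probe sets that map to exactly 1 of these symbols, of 12488 probe sets and 8252 named genes in all. A probe set is a group of short oligonucleotides against 1 transcript or, for some sets, against several similar sequences. Of the 17 probe sets, 10 had a mean signal of at least 200 over all arrays and were tested, and they stood for 9 of the 10 genes. The exception was Col15a1.

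RNA came from mouse aortic endothelial cells, as the labels name them, on 8 single-colour Affymetrix mouse arrays. Of these, 4 arrays held Subconfluent cultures, at less than 50% confluency, and 4 held Confluent cultures, a mature monolayer. Each sample was taken from 6000000 cells. The labels give no strain, age, passage or treatment for either group, and the samples of each group are numbered as experiments 1 to 4.

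The network of collagen IV and the network of laminin form the sheet. Collagen IV trimers of the vessel wall hold chains encoded by Col4a1 and Col4a2, and laminin trimers hold an alpha, a beta and a gamma chain, of which Lama4 is an endothelial alpha chain. Nidogens bind both networks, perlecan carries heparan sulfate chains that hold growth factors, and collagens XV and XVIII sit in the zone next to the membrane, the end of collagen XVIII being released as endostatin.

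Signals are linear values that the authors scaled to a target of 500 on each array. The scale factors ran from 3.05 to 13.3 and the array medians from 169 to 187, and the number of arrays limits the precision. Differences are log2(signal + 50), Subconfluent minus Confluent, tested by limma over 6007 probe sets with Benjamini-Hochberg adjustment and a threshold of 0.05. Arrays with the same experiment number deviated together, so values with the number as a block are given where they change a call. The label was checked against markers of cell types. Of 19 measured endothelial markers 4 reached the signal minimum, against 9 of 14 fibroblast and pericyte markers. Those 4 were Cd34 (1545 ± 677 in Subconfluent cells and 1340 ± 718 in Confluent cells), Eng (781 ± 78.4 and 883 ± 61.8), Flt4 (204 ± 82.1 and 366 ± 159) and Procr (318 ± 117 and 192 ± 95.5; SD, n = 4 each, in the same order of groups). None of the 4 passed limma (0 at an unadjusted p under 0.05), and with the block Flt4 fell and Procr rose (adjusted p = 0.0217 and 0.0320). Among those below the minimum, Cdh5, Tek, Tie1, Vwf, Icam2, Cldn5 and Nos3 had group means between 6.88 and 27.9. Pecam1 averaged 125 in Subconfluent cells and 97.5 in Confluent cells. These were picked outside the rule for named genes, and the other endothelial markers below the minimum are not listed. Those not listed were on average brighter than the range given for Cdh5 to Nos3. The summed signal of all 19 endothelial markers was 3448 to 4514 in Subconfluent cells and 2946 to 4650 in Confluent cells. On average, most of that sum came from Cd34 and Eng. In bulk RNA, fewer cells of a type and less RNA per cell cannot be told apart.

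The basement membrane genes did not move in 1 direction. Col18a1 fell in Subconfluent cells by 1.90-fold, and with the experiment number as a block Nid2 and Col4a2 fell and Nid1 rose as well. The laminin chains and perlecan did not pass either test. Of the 9 genes tested, 1 fell by limma without a block, Col18a1, where 4.06% of all probe sets fell. None rose (0 at an adjusted p under 0.05, 1 at an unadjusted p under 0.05), where 2.75% of all probe sets rose. With the block, 3 of the 9 fell and 1 rose, where 11.3% of all probe sets fell and 9.94% rose. These shares, here and below, are of probe sets, while members and lists are counted by gene. Counted by gene, 205 of 4670 fell and 132 rose without the block, and 567 fell and 471 rose with it. The median log2 difference of the 9 genes was -0.22, beside 0.0045 over the 4670 genes tested. Within experiments 1 to 4 the median of the 9 genes was -0.41, 0.06, -0.42 and -0.31.

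**Figure D1:**
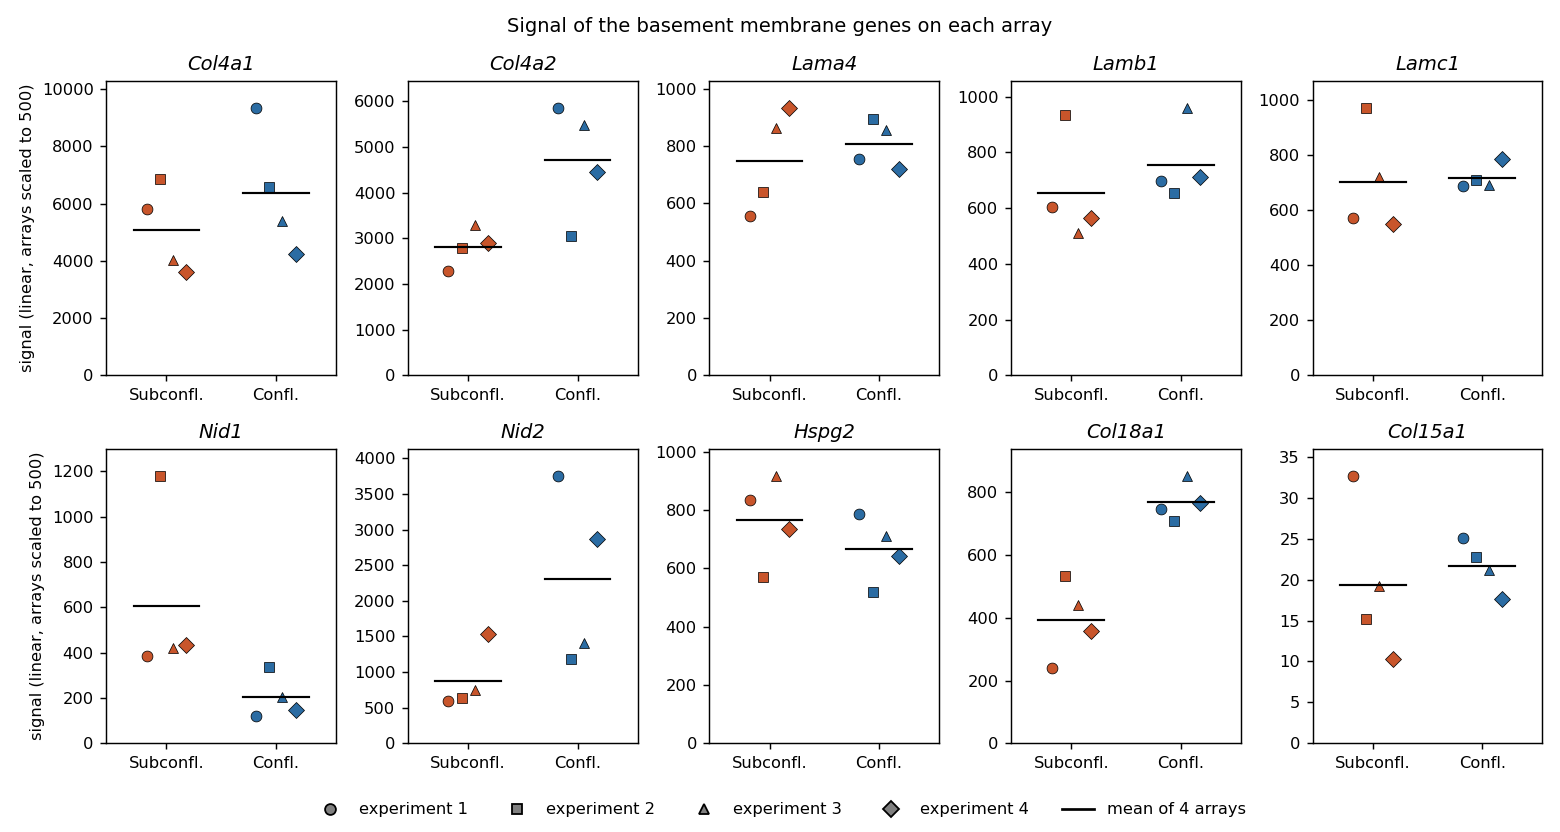
Linear signal of each of the 10 genes on its brightest probe set, with Subconfluent arrays (orange) left of Confluent arrays (blue), symbols for the experiment number and a bar at the mean of 4 arrays. The groups are apart for Nid1 and Col18a1 and overlap for the others, and Col15a1 lies between 10.3 and 32.7 on all arrays. Of all probe sets tested, 8.34% were higher and 8.54% lower without overlap.

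The chains of collagen IV were measured by 1 probe set each, and both were lower on average in Subconfluent cells. Col4a1 had signals of 5824.5, 6851.6, 4022.7 and 3603.9 in Subconfluent experiments 1 to 4, against 9342.6, 6580.7, 5391.1 and 4226.1 in Confluent experiments 1 to 4. The groups overlapped widely, with experiments 1 and 2 above experiments 3 and 4 in both. The mean was 5076 ± 1526 in Subconfluent cells and 6385 ± 2194 in Confluent cells (SD, n = 4 each), a log2 difference of -0.32 ± 0.27 (SE, limma adjusted p = 0.503) with a 95% interval of -0.90 to 0.27, and 3 of 4 experiments were lower.

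Col4a2 had signals of 2290.8, 2792.7, 3303.8 and 2897.3 in Subconfluent cells, against 5861.0, 3057.0, 5490.0 and 4459.4 in Confluent cells. It was lower in all 4 experiments, and the groups overlapped only through Confluent replicate 2, which lay below the highest Subconfluent array. The log2 difference was -0.70 ± 0.21 (SE), which did not pass (limma adjusted p = 0.0692) and passed with the experiment number as a block (adjusted p = 0.0263). Lower in all 4 experiments were 22.1% of all probe sets tested. Without Confluent replicate 2 it passed unpaired (adjusted p = 0.0171), and with the block it did not pass without experiment 1, 3 or 4 (adjusted p = 0.0789, 0.0959 and 0.0805). Within chip lot A, 1 array against 1, the difference was -1.34, and within lot C, 2 Subconfluent arrays against 1, it was -0.82.

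The 2 collagen IV genes lie head to head on opposite strands of mouse chromosome 8. Their annotated starts are 21 bases apart, Col4a1 at 11312826 (minus strand) and Col4a2 at 11312805 (plus strand). The annotated transcripts thus overlap at their 5′ ends, and the bases before each start lie in the other gene. They are shown because the array reads both transcripts of this shared start region, and their differences could be set side by side. Each window runs from 250 bases before to 50 bases after the start, 5′ to 3′ on the gene's own strand (RefSeq, GRCm38.p6). Capitals mark the 78 bases that both windows hold, read on opposite strands. The Col4a1 window is chr8:11312777-11313076 on the minus strand and the Col4a2 window chr8:11312555-11312854 on the plus strand.
Col4a1: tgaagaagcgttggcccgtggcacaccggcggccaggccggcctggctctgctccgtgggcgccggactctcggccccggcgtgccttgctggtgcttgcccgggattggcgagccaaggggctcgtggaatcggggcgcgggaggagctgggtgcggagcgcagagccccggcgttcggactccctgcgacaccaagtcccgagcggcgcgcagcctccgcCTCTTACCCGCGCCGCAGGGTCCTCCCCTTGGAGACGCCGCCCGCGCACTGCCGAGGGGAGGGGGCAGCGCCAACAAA
Col4a2: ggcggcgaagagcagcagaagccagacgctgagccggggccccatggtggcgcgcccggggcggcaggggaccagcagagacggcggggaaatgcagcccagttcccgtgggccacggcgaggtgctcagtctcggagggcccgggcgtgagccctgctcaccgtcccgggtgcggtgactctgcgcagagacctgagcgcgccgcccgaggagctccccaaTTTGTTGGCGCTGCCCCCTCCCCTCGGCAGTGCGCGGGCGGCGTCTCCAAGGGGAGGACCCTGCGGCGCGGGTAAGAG
On both strands the letters GGGCGG, a GC box, matched 1 time in the Col4a1 window and 3 times in the Col4a2 window, and CCAAT matched 1 time in each. GGGCGG was held by 35.7% and CCAAT by 37.4% of 32851 windows of this length, and TATAAA, held by 13.6%, matched neither. Probe sets differ in brightness, so only the change of a difference between genes is read here. Within an array, the log2 difference Col4a1 minus Col4a2 averaged 0.80 ± 0.58 in Subconfluent cells and 0.41 ± 0.57 in Confluent cells (SD, n = 4 each). It was larger in the Subconfluent culture in 4 of 4 experiments, by 0.38 on average. That is less than the spread between arrays (exact permutation test, two-sided, p = 0.400, adjusted p = 0.724 over 4 gene pairs). This spread includes differences between experiments, as experiments 1 and 2 lay above 3 and 4 in both groups, and the test does not use the pairing. The sign-flip test over experiments gave its smallest possible p (exact p = 0.125), so it could not pass. Neither test decides whether the 2 genes changed by different amounts.

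The differences of the laminin chains were within the spread of the arrays. Lama4, the alpha chain of endothelial basement membranes, had signals of 557.6, 638.8, 862.5 and 934.0 in Subconfluent cells, against 755.8, 895.6, 858.1 and 720.0 in Confluent cells. The Subconfluent arrays spread around the Confluent ones, lower in experiments 1 and 2 and higher in 3 and 4. Its log2 difference was -0.13 ± 0.18 (SE, limma adjusted p = 0.721), with a 95% interval of -0.53 to 0.28. A further probe set of Lama4 lay at 19.5 to 38.8 in Subconfluent cells and 18.0 to 92.8 in Confluent cells, under the minimum.

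Lamc1, the gamma chain common to most laminins, had 571.4, 971.1, 721.6 and 549.6 in Subconfluent cells, against 687.5, 709.9, 690.2 and 784.6 in Confluent cells. Its values straddled the narrow Confluent range, and the log2 difference was -0.06 ± 0.18 (SE, limma adjusted p = 0.886; 95% interval -0.47 to 0.35). That probe set carries the suffix f, which marks probes shared within a sequence family, and the other probe set of Lamc1 lay under the minimum (8.1 to 79.3 over all arrays).

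Lamb1, the partner beta chain, was read by 2 tested probe sets that ranked the arrays differently. The one with the higher mean, also of suffix f, had 605.3, 933.1, 509.5 and 564.9 in Subconfluent cells, against 699.1, 654.6, 960.0 and 712.6 in Confluent cells. The other had 632.2, 316.3, 324.8 and 338.4 in Subconfluent cells, against 674.8, 652.2, 488.6 and 444.3 in Confluent cells. The first was lower in 3 of 4 experiments and the second in 4 of 4, and in experiment 2 they had opposite signs. Neither passed, at -0.22 ± 0.20 and -0.47 ± 0.23 (log2, SE, limma adjusted p = 0.550 and 0.218), and with the block the second had an adjusted p of 0.0714. Against Lamc1 on the same array, the change of Lamb1 differed by -0.16 and that of Lama4 by -0.07 (exact permutation test, p = 0.543 and 0.857, adjusted p = 0.724 and 0.857).

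The nidogens differed in opposite directions. Nid1, the nidogen that links laminin to collagen IV in most tissues, had signals of 384.6, 1180.2, 420.5 and 434.9 in Subconfluent cells, against 120.7, 337.5, 206.4 and 149.0 in Confluent cells. Every Subconfluent array was above every Confluent array, as for 8.34% of all probe sets tested, and experiment 2 was the highest in both groups. The mean was 605 ± 384 in Subconfluent cells and 203 ± 96.2 in Confluent cells (SD, n = 4 each), 2.45-fold on the log2 scale used (1.29 ± 0.35 SE). It lay just outside the threshold (limma adjusted p = 0.0511) and rose with the experiment number as a block (adjusted p = 0.00221, higher in 4 of 4 experiments).

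In the paired fit Nid1 kept its call without each experiment in turn (adjusted p up to 0.0144). Unpaired, it passed without Confluent replicate 2 (adjusted p = 0.0250) and did not pass without any of the other 7 arrays (0.0673 to 0.118). In chip lot A its difference was 1.35, and in lot C it was 0.90. With Subconfluent replicate 2 left out, the array with the signal of 1180.2, it was 0.94.

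Nid2, its relative with a more restricted distribution, had 587.4, 636.6, 751.3 and 1531.0 in Subconfluent cells, against 3757.9, 1183.3, 1406.3 and 2874.6 in Confluent cells. Within each experiment the Subconfluent culture was lower, while the groups overlapped because Subconfluent replicate 4 lay above Confluent replicates 2 and 3. The mean was 877 ± 442 in Subconfluent cells and 2306 ± 1225 in Confluent cells (SD, n = 4 each), 2.45-fold lower on the log2 scale (-1.29 ± 0.38 SE). It did not pass unpaired (limma adjusted p = 0.0667) and fell with the experiment number as a block (adjusted p = 0.0135, and up to 0.0372 without an experiment). The probe set's suffix s marks probes that can match similar sequences. Within lot A the difference was -2.58 and within lot C -0.37, and unpaired it passed without Confluent replicate 2 (adjusted p = 0.0304).

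Set against each other on the same array, Nid1 minus Nid2 was -0.55, 0.84, -0.77 and -1.71 (log2) in Subconfluent cells, against -4.48, -1.67, -2.51 and -3.88 in Confluent cells. The shift toward Nid1 was present in 4 of 4 experiments, and only Subconfluent replicate 4 and Confluent replicate 2 overlapped, by a small margin. The shift averaged 2.59 and did not pass (exact permutation test, two-sided, p = 0.0571, adjusted p = 0.229 over 4 gene pairs). The smallest p that 4 arrays against 4 allow is 0.0286, which adjusts to 0.114 where 1 of the 4 pairs reaches it alone. Fibroblast and pericyte markers, whose cells also make nidogens, were lower on the same arrays. Their summed signal was 28232 to 41858 in Subconfluent cells and 57481 to 82213 in Confluent cells, and their part in these differences was not tested.

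**Figure D2:**
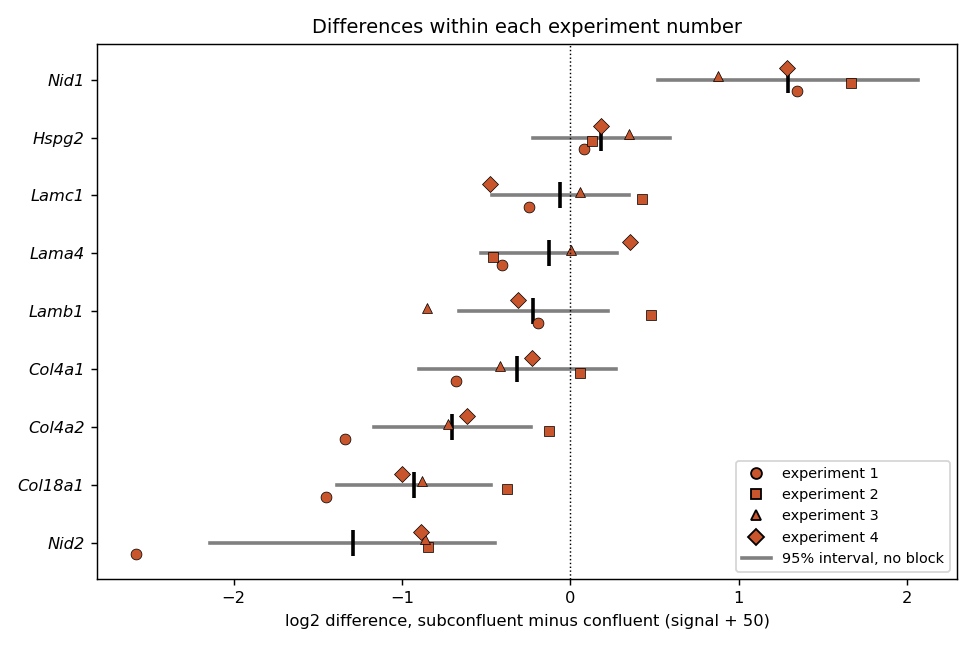
Log2 difference, Subconfluent minus Confluent, of the 9 tested genes within each experiment number (symbols), with the mean (black mark) and its 95% interval from limma without a block (grey). Nid1 and Hspg2 are above 0 in all 4 experiments, and Nid2, Col18a1 and Col4a2 below 0 in all 4.

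The start regions of Nid1 and of Col18a1 are shown because these are the genes whose groups did not overlap, 1 in each direction. Of all probe sets tested, 8.34% were higher and 8.54% lower without overlap, so this sets the 2 genes apart only for display. The window of Nid1 is chr13:13437352-13437651 on the plus strand. Col18a1 has 2 annotated start windows, chr10:77166481-77166780 (upstream) and chr10:77113656-77113955 (downstream), both on the minus strand. Which of their transcripts each probe set reads was not examined. Sequences are 5′ to 3′ (RefSeq, GRCm38.p6), and capitals mark each match to GGGCGG on either strand.
Nid1: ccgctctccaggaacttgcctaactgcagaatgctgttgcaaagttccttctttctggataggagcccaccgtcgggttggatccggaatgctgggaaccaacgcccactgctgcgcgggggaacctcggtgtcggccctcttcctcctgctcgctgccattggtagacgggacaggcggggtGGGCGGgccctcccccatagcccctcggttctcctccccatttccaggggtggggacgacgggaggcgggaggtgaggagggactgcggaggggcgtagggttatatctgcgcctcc
Col18a1 upstream start: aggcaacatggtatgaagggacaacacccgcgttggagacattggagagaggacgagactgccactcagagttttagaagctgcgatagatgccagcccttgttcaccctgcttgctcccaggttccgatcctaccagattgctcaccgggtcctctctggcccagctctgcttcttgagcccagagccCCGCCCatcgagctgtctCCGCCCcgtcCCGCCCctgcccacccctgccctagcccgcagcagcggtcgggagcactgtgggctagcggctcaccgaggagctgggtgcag
Col18a1 downstream start: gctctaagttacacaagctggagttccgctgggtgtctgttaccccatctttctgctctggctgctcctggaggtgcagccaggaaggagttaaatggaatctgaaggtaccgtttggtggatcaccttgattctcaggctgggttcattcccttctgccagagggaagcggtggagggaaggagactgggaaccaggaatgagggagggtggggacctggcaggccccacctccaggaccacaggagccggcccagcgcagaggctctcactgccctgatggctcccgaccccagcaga
The GC box matched 1 time in the Nid1 window, 3 times in the upstream Col18a1 window and 0 times in the downstream one. The letters TATAAA matched in none of the 3. Of the 10 genes, 7 had a window in the table, and the Hspg2 window held 5 GC box matches, the most among them.

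Perlecan, the heparan sulfate proteoglycan encoded by Hspg2, had signals of 833.8, 571.9, 917.6 and 736.0 in Subconfluent cells, against 786.4, 517.8, 710.9 and 643.5 in Confluent cells. It was slightly higher in each of the 4 experiments, as were 20.7% of all probe sets tested, while the groups overlapped. The log2 difference was 0.18 ± 0.19 (SE, limma adjusted p = 0.589; 0.330 with the block), and its 95% interval was -0.22 to 0.59.

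Col18a1 was the one gene that fell without the block. Its main probe set had signals of 241.2, 534.5, 439.6 and 357.3 in Subconfluent cells, against 747.4, 709.3, 853.1 and 764.9 in Confluent cells. Every Subconfluent array was below every Confluent array, as for 8.54% of all probe sets tested. The mean was 393 ± 125 in Subconfluent cells and 769 ± 60.9 in Confluent cells (SD, n = 4 each), 1.90-fold lower (log2 -0.93 ± 0.21 SE, limma adjusted p = 0.0294; 0.00928 with the block). In chip lot A its difference was -1.45, and in lot C it was -1.02.

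The unpaired call of Col18a1 depended on single arrays. It was lost without Subconfluent replicate 1 or 4 (limma adjusted p = 0.0528 and 0.0724) and without Confluent replicate 1, 3 or 4 (0.0569, 0.0757 and 0.0659). It was kept without each of the other 3 arrays, and with the block it was kept without each experiment (adjusted p up to 0.0435). Without the signal minimum, over more probe sets, this main probe set did not pass (limma adjusted p = 0.0533).

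The other 4 probe sets of Col18a1 lay under the signal minimum, and all had a lower mean in Subconfluent cells. One of them (suffix g) had 99.8, 60.3, 61.6 and 17.6 in Subconfluent cells, against 359.7, 215.2, 174.4 and 114.6 in Confluent cells. Another (suffix f) had 28.6, 17.8, 22.3 and 17.8 in Subconfluent cells, against 176.9, 101.2, 62.1 and 117.7 in Confluent cells. For both of these the groups did not overlap, and no share was counted over probe sets under the minimum. The remaining 2 averaged 82.0 and 38.9 in Subconfluent cells and 101 and 90.5 in Confluent cells, with overlapping groups. In the fit without the signal minimum, the probe set of suffix f passed (log2 -1.16, limma adjusted p = 0.0316). That of suffix g and the remaining 2 did not (adjusted p = 0.0764, 0.795 and 0.312).

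**Figure D3:**
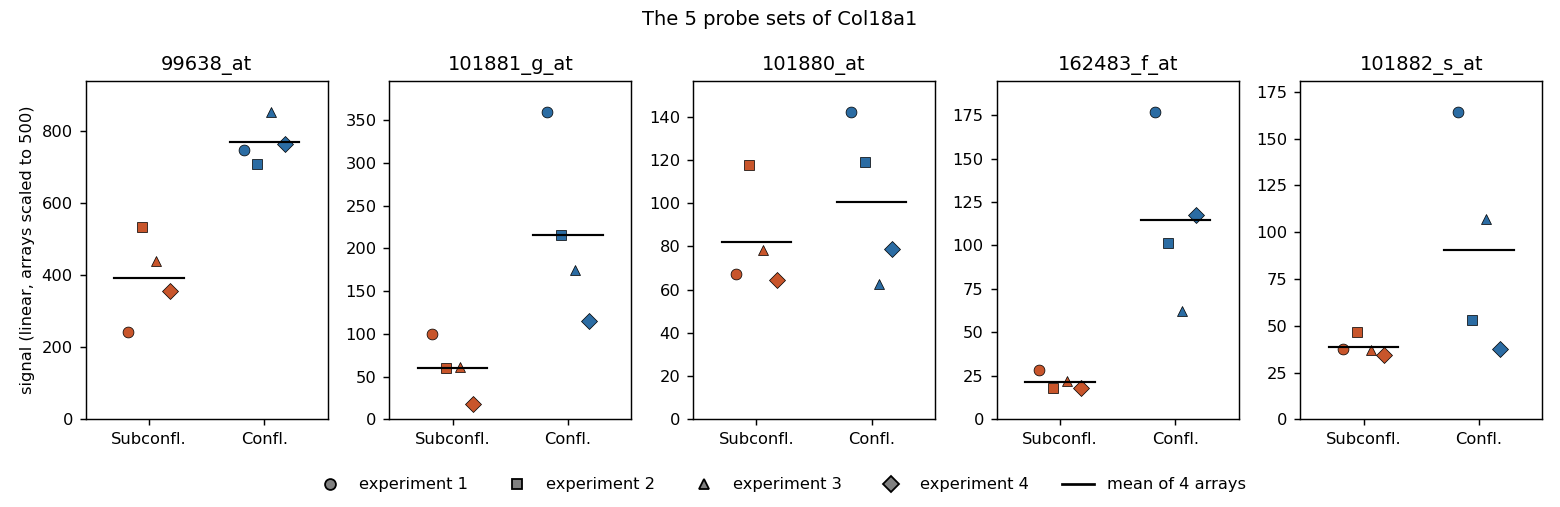
Linear signal of the 5 probe sets of Col18a1 on Subconfluent (orange, left) and Confluent (blue, right) arrays, with symbols for the experiment number and a bar at the mean of 4 arrays. The groups are apart on 3 probe sets, and only the first of the 5 reached the signal minimum of 200. Of all probe sets tested, 8.54% were lower without overlap.

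Col15a1, the relative of Col18a1, lay under the signal minimum on every array. Its probe set had 32.7, 15.2, 19.2 and 10.3 in Subconfluent cells, against 25.1, 22.8, 21.2 and 17.6 in Confluent cells. No fold was drawn from these values, and its change was not set against that of Col18a1.

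Genes around the basement membrane were described by 5 lists, chosen with earlier results of these data known. In these lists (other components, receptors and binding partners, chain assembly, heparan sulfate synthesis, proteolysis) 68 genes were tested, of which 9 fell by limma (13.2%, where 4.06% of all probe sets fell) and 0 rose (2 at an unadjusted p under 0.05), where 2.75% of all probe sets rose. With the block 17 fell (25.0%, where 11.3% of all probe sets fell) and 1 rose (where 9.94% did), the urokinase receptor gene Plaur (log2 difference 0.69, adjusted p = 0.0472 with the block). Their median log2 difference was -0.21, beside 0.0045 over all genes tested, and 51 of the 68 differences were negative, beside 2313 of 4670. The count that fell was 4, 2, 7 and 2 without Subconfluent replicates 1 to 4, and 3, 10, 2 and 4 without Confluent replicates 1 to 4. On the same arrays 5 of 9 tested fibroblast and pericyte markers fell (log2 differences of -2.04 for Dcn, -1.04 for Col1a2, -2.70 for Lum, -1.31 for Col3a1 and -0.76 for Tcf21), and with the block 7 of the 9 fell. Of these 5, Dcn passed without each of the 8 arrays, Col1a2 did not pass without Subconfluent replicate 4 or Confluent replicate 3 (adjusted p = 0.0509 and 0.0518), and Lum passed without 3 of the 8 arrays, Col3a1 without 2 and Tcf21 without 0. Without Subconfluent replicate 4, Dcn alone of the 5 passed.

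Markers of other cell types moved on the same arrays too. Of 4 tested smooth muscle markers Mylk fell (log2 -1.84, limma adjusted p = 0.0163, and up to 0.0471 without 1 array). Tagln and Acta2 were 1.47 and 1.14 and rose with the block only (adjusted p = 0.108 and 0.228 without it, 0.0102 and 0.0172 with it), and their highest signal was on Subconfluent replicate 2, as for Nid1. The remaining tested smooth muscle marker, Actg2, was 0.02 (limma adjusted p = 0.978). The macrophage marker Cd14, the only 1 of 10 at the signal minimum, and the mesothelial marker Upk3b were -0.70 and -0.85. Both fell with the block only (adjusted p = 0.0563 and 0.161 without it, 0.0228 and 0.0271 with it). Cdh1, the other of 2 tested epithelial and mesothelial markers, was 0.30 and higher in 4 of 4 experiments. Its groups did not overlap, as for 8.34% of all probe sets tested. It did not pass (limma adjusted p = 0.256 without the block and 0.163 with it). The part of these markers in the counts and in the members' differences was not tested.

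Among other basement membrane components 1 of 12 tested fell, where 4.06% of all probe sets fell. It was Agrn, which encodes the heparan sulfate proteoglycan agrin. Agrn had 381.4, 240.6, 421.1 and 313.0 in Subconfluent cells, against 588.8, 705.2, 662.1 and 474.8 in Confluent cells (log2 -0.77 ± 0.19 SE, limma adjusted p = 0.0407). The groups of Agrn did not overlap, as for 8.54% of all probe sets tested. Its call was lost without any single array but Subconfluent replicate 3 (adjusted p from 0.0533 to 0.0975). Lama5, the other endothelial laminin alpha chain, had 311.5, 156.7, 382.1 and 373.6 in Subconfluent cells, against 1198.4, 282.5, 829.1 and 759.7 in Confluent cells.

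Lama5 was thus lower within every experiment, with Confluent replicate 2 alone inside the Subconfluent range. Its log2 difference of -1.11 ± 0.37 (SE) did not pass (limma adjusted p = 0.0919) and passed with the block (0.00589) or without Confluent replicate 2 (0.0139). Col4a5, a further collagen IV chain, and Sparc, a matricellular protein that binds collagen IV, were -0.65 and -0.51 (adjusted p = 0.0637 and 0.250; 0.0279 and 0.0300 with the block). The list's median was -0.20, and 9 of its 21 genes on the array lay under the minimum.

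Of 13 receptors and binding partners 2 fell and 0 rose (0 at an unadjusted p under 0.05), where 4.06% of all probe sets fell and 2.75% rose. Lgals3bp, a secreted glycoprotein that binds collagens and nidogen, had 669.3, 296.0, 615.0 and 484.5 in Subconfluent cells, against 1962.3, 905.4, 1416.3 and 1189.5 in Confluent cells (log2 -1.33 ± 0.27 SE, limma adjusted p = 0.0212). Sdc2, the heparan sulfate carrying receptor syndecan-2, was 304 ± 139 in Subconfluent cells and 799 ± 355 in Confluent cells (SD, n = 4 each; log2 -1.25, adjusted p = 0.0401). Both had no overlap between groups, as for 8.54% of all probe sets tested. Dag1 (dystroglycan, a laminin receptor) and Ddr1 (a collagen receptor kinase) were -0.62 and -0.67 and did not pass (adjusted p = 0.0925 and 0.108; 0.0523 and 0.0438 with the block). The list's median was -0.26. Lgals3bp lost its call without Subconfluent replicate 2 or 4 or Confluent replicate 3 (0.0501, 0.0571 and 0.0616). Sdc2 kept its call only without Subconfluent replicate 1 or Confluent replicate 2 (0.0338 and 0.0260), and otherwise had adjusted p from 0.0699 to 0.0988.

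Among the enzymes and chaperones that build collagen and laminin chains, 1 of 17 tested fell, P3h3, a member of the prolyl 3-hydroxylase family (log2 -1.03 ± 0.23 SE, limma adjusted p = 0.0308), with 445 ± 106 in Subconfluent cells and 982 ± 351 in Confluent cells (SD, n = 4 each). Its adjusted p was 0.0520 to 0.0776 without Subconfluent replicate 1, 2 or 4 or Confluent replicate 1 or 3. None rose (0 at an unadjusted p under 0.05), 15 of 17 differences were negative and the median was -0.19. Of all probe sets tested, 4.06% fell and 2.75% rose. Crtap, a protein of the complex that 3-hydroxylates collagen prolines, Tmem38b, an endoplasmic reticulum ion channel, and Sec23a, a coat protein of the vesicles that carry procollagen, were -0.42, -0.45 and -0.55 (adjusted p = 0.116, 0.136 and 0.170). With the block Crtap passed (0.0426).

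Of 10 genes of heparan sulfate synthesis 0 passed limma in either direction (1 lower and 1 higher at an unadjusted p under 0.05). Among all probe sets tested, 4.06% fell and 2.75% rose. The sulfate donor transporter gene Slc35b2 was -0.53 (adjusted p = 0.116; 0.0298 with the block) and the epimerase gene Glce 0.41 (0.164). Ext2, a polymerase of the chain, and Ugdh, which makes a sugar precursor, were -0.31 and 0.24 (0.280 and 0.421). The list's median was -0.02.

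Among proteases and their regulators 5 of 16 tested fell, where 4.06% of all probe sets fell. With the block 7 fell and 1 rose, where 11.3% of all probe sets fell and 9.94% rose. Mmp3 (stromelysin-1, which cleaves nidogen and laminin) had 1580.7, 959.3, 3178.6 and 2587.5 in Subconfluent cells, against 13798.8, 7081.9, 13653.5 and 15871.8 in Confluent cells (log2 -2.65 ± 0.36 SE, limma adjusted p = 0.00361). Plat, the tissue plasminogen activator gene, had 1073.1, 856.9, 1568.9 and 1310.0 in Subconfluent cells, against 4191.7, 2446.3, 4201.8 and 3233.5 in Confluent cells (log2 -1.51 ± 0.23 SE, adjusted p = 0.00629). Both had groups well apart, where 8.54% of all probe sets tested were lower without overlap. Mmp3 and Plat kept their calls without each of the 8 arrays (adjusted p up to 0.0162 and 0.0265). Ctsb, a lysosomal protease gene, Pcolce, an enhancer of procollagen processing, and Mmp14, a membrane-bound collagenase gene, fell by 0.90, 0.91 and 0.77 on the log2 scale (adjusted p = 0.0409, 0.0470 and 0.0470).

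Ctsb kept its call only without Subconfluent replicate 3 or Confluent replicate 2 (0.0464 and 0.0171), Pcolce only without Subconfluent replicate 3 (0.0101) and Mmp14 only without Confluent replicate 2 (0.0171), with values up to 0.115 otherwise. None of the 16 rose unpaired (1 at an unadjusted p under 0.05), and the list's median was -0.44.

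**Figure D4:**
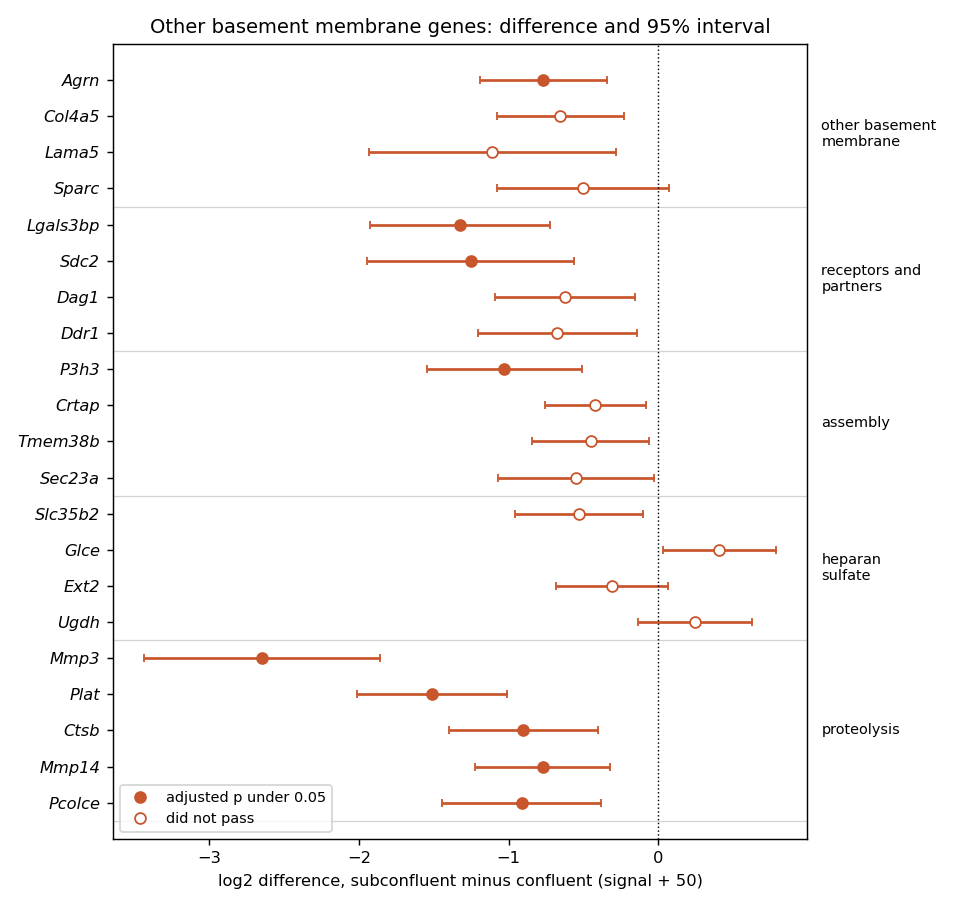
Log2 difference, Subconfluent minus Confluent, with its 95% interval (limma, no block, 4 arrays against 4) for the named genes of the 5 lists. Filled points passed an adjusted p of 0.05, and all 9 of them lie below 0, from -2.65 for Mmp3 to -0.77 for Agrn.

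Patterns like those of the members were sought over all 8 arrays as a description, with arrays that share their cultures' conditions and experiment numbers. The 5 genes most like Col4a1, by Pearson's r of log2 values among 4669 genes, were Gorasp2 (r = 0.97), Vamp5 (0.95), Kdelr3 (0.94), Ppib (0.93) and Tpd52l2 (0.92). Gorasp2 encodes a Golgi stacking protein, Kdelr3 a retrieval receptor for endoplasmic reticulum proteins and Ppib a prolyl isomerase that acts on collagen. Vamp5 and Tpd52l2 are not described here, and a shared function of the 5 was not tested. They are the highest of 4669 values, and with 8 arrays high r values can also arise by chance. Col4a2 came at rank 1344 (r = 0.27), Col18a1 at 1180 (0.32) and Lamb1 at 811 (0.44). The genes most like the mean standardised profile of the 9 members were Ddb1 and Saraf (r = 0.95 each), Ociad1, Tesk1 and Chd8 (0.91 to 0.92). Their log2 differences ran from -0.35 to -0.14, and none of the 5 passed (limma adjusted p from 0.199 to 0.668). Single members had r with that mean from -0.34 (Nid1) to 0.90 (Col18a1). The mean contains the member itself, which raises its r, so these values are not comparable with those of other genes.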

How the data were processed

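Total RNA was measured on 8 arrays, 4 Subconfluent and 4 Confluent. Each deposited value is the linear signal of 1 probe set, which the authors obtained from the statistical algorithm of Affymetrix software, with all arrays brought to 500, per the labels. That software's version is not given in the sources used here. On every array the mean signal without the highest and lowest 2% was 500. Of 12488 probe sets, 66 controls were left out. The platform annotation gave 10855 probe sets 1 symbol, 396 several and 1237 none, and 10839 of the probe sets with 1 symbol were found in the RefSeq table.

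The 6007 probe sets whose signal averaged 200 or more were tested as log2(signal + 50) with limma 3.58.1 in R 4.3.3 (variance trend, no block, 6 residual degrees of freedom, two-sided, Benjamini-Hochberg adjustment over all of them). The filter and the pseudocount understate changes of dim genes. The script was tested on simulated data. The tested probe set with the highest mean stands for a gene. Changes of partner genes were compared by exact permutation tests with scipy 1.17.1, over arrays and by sign flips over experiments. Promoter windows are RefSeq's. The array names no genome build.

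The labels number the arrays of each group as experiments. Deviations from the group means correlated at 0.35 to 0.52 between arrays of the same number and at most at 0.07 between arrays of different numbers, so the numbers were taken as pairs. Nothing in the labels tells how cultures relate, so p-values measure the spread between these samples. Chip lots are those in the labels, and lot A holds 1 array of each group, lot B 2 Confluent, lot C 2 Subconfluent and 1 Confluent, and lot D 1 Subconfluent.

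The members and lists were chosen with earlier results of these data known. Named were all members, up to 4 genes per list with the smallest p, all that passed where at most 6 did, and the 5 genes most like Col4a1 and most like the members' mean. Alternatives were the experiment number and the chip lot as blocks, other pseudocounts, filters and scalings, array weights, the scale factor as a covariate, no variance trend, the mean of a gene's probe sets, and leaving out each array or experiment.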

Additional observations from a re-analysis of the deposited data

Results flagged for a closer look

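In 108 groups of 4 arrays the highest or lowest signal was set against the rest, and in 6 groups its gap to the nearest array, divided by the group's range, was above Dixon's 95% critical value. Chance gives this in about 5% of groups. Among the members, Nid1 had 1180.2 in Subconfluent replicate 2, where the other 3 Subconfluent arrays lay between 384.6 and 434.9 (gap over range 0.94). The probe set of Lamb1 with the lower mean had 632.2 in Subconfluent replicate 1, where the others lay between 316.3 and 338.4 (0.93). Among the other named genes, Ext2 had 820.5 in Subconfluent replicate 2 (0.92) and Pcolce had 9110.5 in Confluent replicate 3 (0.95). The fibroblast marker Lum had 6128.6 in Confluent replicate 1 (0.92), and the mesothelial marker Upk3b had 4350.5 on the same array (0.95), which also had the highest Confluent signal of Nid2, 3757.9.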

How the results depend on the processing

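Of the 9 genes, 1 was lower and 0 higher (1 at an unadjusted p under 0.05) by limma without a block. With the replicate block and with the chip lot as a random block 3 were lower and 1 higher, and with the lot as a fixed block, the scale factor as a covariate or array weights 2 were lower and 1 higher. Median centring and the mean of a gene's probe sets gave 1 higher. Without the signal minimum 0 were lower, counted on the brightest probe set of each gene. Leaving out 1 array gave 0 to 3 lower and 0 to 1 higher. With the replicate block and an experiment left out, 2 to 3 were lower and 1 higher. Of all probe sets tested, 4.06% fell and 2.75% rose without a block, and 11.3% fell and 9.94% rose with the replicate block. These shares were not counted for the other settings, so their counts have no background beside them. The median of -0.22 was -0.53 with the lot as a fixed block and -0.39 to -0.11 without 1 array. Of the 68 genes in the lists, 9 were lower, against 17 lower and 1 higher with the replicate block and 2 to 10 lower without 1 array. Lama4 turned to 0.061 within lot C and 0.0081 with array weights, and Lamc1 to 0.022 and 0.039 without Subconfluent replicate 1 or 4 and to 0.0030 and 0.080 with the replicate block and without replicate 1 or 4. Neither gene passed in any of these. The change of Lamb1 minus Lamc1 was -0.66 within lot C, and that of Nid1 minus Nid2 was 3.93 in lot A and 1.27 in lot C. The cause of these shifts was not tested. Col18a1, Nid1, Nid2, Col4a2, Col4a1, Hspg2 and both Lamb1 probe sets kept their sign under every alternative run. A minimum of 500 left out Nid1. With 4 arrays a group, a gene that did not pass may still differ between the groups, and 7 of the 17 probe sets lay under the signal minimum.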
